A study of Anguilla anguilla with 45 samples.

Results

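Caudal fins of European eels (Anguilla anguilla) fed polychlorinated biphenyls (PCBs) at 300 ng/g were compared with fins of eels fed 50 ng/g, on 5 arrays per dose out of 45 in the series. The 5 fish of the higher dose are numbered 31 to 35 and those of the lower dose 25 to 29. Both groups were laboratory eels that received PCBs in the diet, and the labels write the dose as ng/g PS without saying what PS stands for. The labels give no age, sex, strain or length of exposure. The unexposed laboratory fins came from fish 6 to 10. They are used here to place the levels of both doses, and they enter the common fit of the fin arrays. Other arrays of the series hold wild fins from Certes, Gironde and Garonne, fins of eels kept in water with 4 µg/L cadmium (Cd), and livers of control and Cd eels, again 5 per group. Every sample, labelled with Cy3, was hybridised together with a common Cy5 reference, a pool of 30 wild Certes eels whose tissue the labels give as liver. A value is the authors' log2 ratio for a contig, an assembled transcript sequence, and 1 unit is a doubling or a halving. The authors centred each array, so 0 is the median ratio of the array, and where a level is set against the reference below, this 0 is meant. Members of the comparison are the contigs with at least 3 values at each dose, 733 of 992.

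PCBs are persistent, fat-soluble industrial chemicals that build up in eels, which are long-lived, fatty, bottom-dwelling fish. Dioxin-like PCBs bind the aryl hydrocarbon receptor, a transcription factor that switches on genes of detoxification such as cytochrome P450 1A. Others act on nuclear receptors of drug metabolism or on hormone signalling. The caudal fin is skin, connective tissue, bony fin rays, vessels and nerve, and a clip of it can be taken from a living eel. This is why the study set out to read exposure from fin transcripts. The files do not pair contigs with genes, and 0 of 992 contig names matched the eel gene table used here, so gene groups, markers of fin or liver, and sequences could not be looked up. Contigs are given by number.

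Of the 259 contigs left out, 184 lacked values at 300 ng/g only, 56 at 50 ng/g only and 19 at both doses. Just outside the minimum lay 167 contigs with 2 values at the dose with fewer, and just inside it 197 with 3. All 10 values were present for 278 contigs. The array of fish 33 held 470 values, the fewest of the 10, and 230 of the 259 contigs left out had none on it. At 300 ng/g the arrays of fish 31, 32, 34 and 35 held 774, 701, 820 and 936 values. At 50 ng/g fish 25 to 29 held 864, 706, 827, 755 and 982. The mean was 740.2 ± 173 at 300 ng/g and 826.8 ± 106 at 50 ng/g (SD, n = 5 each), and the exact two-sided permutation test gave p = 0.405 (adjusted p = 0.405 over 3 measures of the arrays). For 7 contigs all 5 arrays at 50 ng/g held a value, between -2.39 and 3.40, and no array at 300 ng/g did. These 7 had 1 to 3 values among the 5 control fins.

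Signed values take the ratio as sample over reference. This direction is an assumption. The labels give Cy3 to the sample and Cy5 to the reference, which does not settle it, and the deposited table does not state it. Every "higher" and "lower" would swap if it were the other way. Of the 25 pairs of arrays across the doses, fish 26 with fish 33 had the lowest correlation, -0.530, and fish 26 with fish 32 lay at -0.323. Within the 50 ng/g group fish 26 with fish 28 lay at -0.319. Other pairs went the other way. Fish 26 lay at 0.397 with fish 25, the highest pair within 50 ng/g, at 0.148 with fish 29 and at 0.226 with fish 35. With the remaining PCB arrays it was below 0. The dyes are labelled alike on all arrays, so the sign of fish 26 was left as deposited, and a count with that sign turned is given with the results. Nothing in the labels says more of the fish than their numbers, so p-values measure the spread between arrays. For single contigs that spread is pooled over all 35 fin arrays, other fin groups included. For measures per array it is that of the PCB arrays alone.

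The 300 ng/g fins resembled one another, whereas the 50 ng/g fins on average resembled neither one another nor the other dose. Pearson's correlation across contigs averaged 0.594 over the 10 pairs within 300 ng/g, from 0.167 to 0.821. Within 50 ng/g it averaged 0.026, from -0.319 to 0.397, and 5 of 10 pairs were below 0. Over the 25 pairs between doses the mean was 0.007, from -0.530 to 0.530, and 9 were below 0. The pairs shared 391 to 931 contigs, and all arrays share the reference, so these values describe the arrays and carry no test. Every difference between the doses given below rests on these 50 ng/g arrays. Whether the contigs of their 5 columns are identified as on the other arrays was not tested, and if they are not, the differences would not be differences between the doses.

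**Figure D1:**
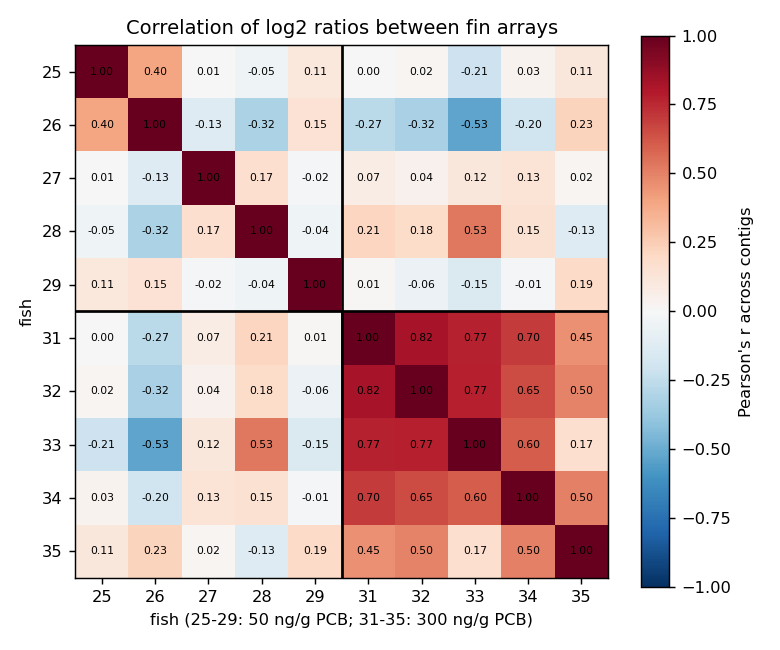
Pearson's r across contigs for each pair of the 10 PCB fin arrays, with fish 25 to 29 (50 ng/g) and 31 to 35 (300 ng/g) on both axes and a black line between the doses. The block of 300 ng/g arrays runs from 0.17 to 0.82, while values within 50 ng/g and between the doses lie on both sides of 0.

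Single fish differed within this pattern. At 300 ng/g, fish 31 and 32 correlated with the other arrays of their dose at 0.686 and 0.685 on average, fish 34 at 0.614, fish 33 at 0.579 and fish 35 at 0.405. At 50 ng/g, fish 25 had the highest such mean, 0.116, and fish 28 the lowest, -0.060. With the mean of the control fins, the 300 ng/g arrays correlated at 0.583 (fish 33) to 0.774 (fish 32). The 50 ng/g arrays lay between -0.039 (fish 26) and 0.080 (fish 29) on that measure. A correlation with a mean of arrays does not compare directly with the averages over single pairs above. With single control arrays, the 300 ng/g arrays ran from 0.281 to 0.873 and the 50 ng/g arrays from -0.216 to 0.233. Fish 28 was the 50 ng/g array nearest to the higher dose, at 0.189 on average, and fish 26 the farthest, at -0.219. Fish 28 and fish 33 correlated at 0.530.

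The sign of a contig's ratio was repeated more often at the higher dose. Among the 278 contigs with all 10 values, all 5 arrays lay on the same side of the reference in 119 contigs (42.8%) at 300 ng/g and in 41 (14.7%) at 50 ng/g. Over those of the 278 contigs with 5 values in another fin group, the share was 47.1% of 255 in controls, 64.4% of 250 in Certes, 55.4% of 231 in Garonne, 22.4% of 107 in Gironde and 21.1% of 223 in Cd fins. Leaving out 1 array of the same dose at a time gave 43.2% to 59.0% at 300 ng/g, the highest without fish 33. At 50 ng/g it gave 17.3% to 30.2%, the highest without fish 28. With 4 arrays left in a group a common sign is easier to reach.

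The SD of an array's log2 ratios, taken around the array's own mean, did not pass the test between the doses over all values. It did among the contigs measured on all 10 arrays. Over all its values the SD of an array's log2 ratios was 1.96, 2.11, 3.07, 1.80 and 1.56 in fish 31 to 35, and 1.47, 2.03, 1.52, 1.74 and 0.68 in fish 25 to 29. The groups overlapped, with means of 2.10 ± 0.58 and 1.49 ± 0.50 (SD, n = 5 each), and the exact two-sided permutation test gave p = 0.0952 (adjusted p = 0.286 over 3 measures). Over the 278 contigs present on all 10 arrays the SDs were 1.46 to 2.34 at 300 ng/g and 0.53 to 1.38 at 50 ng/g. Here the groups did not overlap, with means of 1.76 ± 0.35 and 1.00 ± 0.31, and the exact permutation p was 0.0079, the lowest value such a test can reach with these group sizes (adjusted p = 0.0238 over 3 measures). The main test was the one over all values, and this adjustment does not cover the choice of contigs. The median absolute log2 ratio of an array was 0.961, 0.795, 2.12, 0.880 and 0.664 in fish 31 to 35. In fish 25 to 29 it was 0.631, 1.25, 0.701, 0.942 and 0.311, which overlaps the higher dose (exact permutation p = 0.381, adjusted p = 0.405). Over the 278 contigs this measure did not pass either (difference 0.21, exact permutation p = 0.294, adjusted p = 0.405). Fish 29 was the array closest to the reference and held the most values, and fish 33 the farthest from it and held the fewest.

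Within single contigs the arrays of the lower dose were the more spread out. The median SD between the arrays of a dose was 0.749 at 300 ng/g and 1.08 at 50 ng/g over the 733 contigs, and in 459 of them (62.6%) the lower dose had the larger SD. In the 102 contigs called below, the medians were 1.01 and 1.09, and the lower dose had the larger SD in 56 (54.9%). Of these, the 66 lower at 300 ng/g had medians of 1.15 and 1.08, and the 36 higher 0.74 and 1.10.

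At 300 ng/g 36 contigs were higher and 66 lower than at 50 ng/g, 102 in all, which is 13.9% of the 733 tested (4.91% higher and 9.00% lower). The test was limma's on all 35 fin arrays in 1 fit, two-sided, with a Benjamini-Hochberg adjusted p under 0.05 over the 733 contigs, and 30.0% had an unadjusted p under 0.05. The balance of directions depends on the scaling. Quantile normalization turned it, to 38 higher and 23 lower of 61, and with a common spread for all arrays 25 of 50 were higher and 25 lower. A fit of the 10 PCB arrays alone gave 13 higher and 39 lower of 52. Without fish 33 there were 63 of 691 tested, 25 higher and 38 lower. With the sign of fish 26 turned there were 68 of 733, 21 higher and 47 lower.

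The differences of the called contigs were large on the log2 scale, which picking them by the test favours. The median SE of a difference was 0.80 over the 733 contigs, so small differences were unlikely to pass. The sizes below carry no test. The 36 higher contigs differed by 1.43 to 5.14 (median 2.83) and the 66 lower ones by -2.07 to -8.67 (median -3.48). Beyond 4 units in size were 6 higher and 19 lower contigs. Over all 733 contigs the median difference was -0.14, 338 (46.1%) were above 0, and 49.4% lay within 1 unit of 0. Among the 20 contigs with a difference under -4, 19 passed the test, as did all 6 with a difference over 4. No contig with a difference between -2 and 1 passed.

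**Figure D2:**
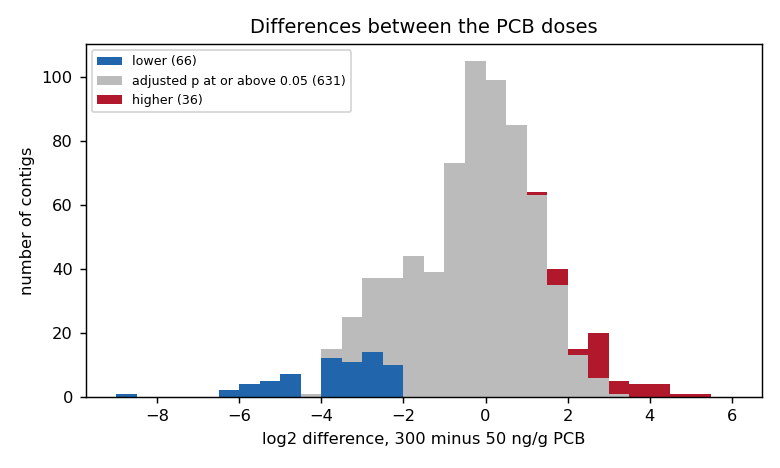
Number of contigs (vertical) by log2 difference of 300 minus 50 ng/g PCB (horizontal, in steps of 0.5), with the 66 lower contigs in blue, the 36 higher ones in red and the 631 others in grey. The tail of lower contigs reaches -8.67 and that of higher contigs 5.14.

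Calls were spread over contigs with few and with many values. Of the 278 contigs with 5 values at each dose 44 passed (15.8%), of the 258 with 4 values at the dose with fewer 33 (12.8%), and of the 197 with 3 values 25 (12.7%). The median standard error of a difference was 0.64, 0.85 and 0.97 in the same order. Values of the doses did not overlap in 73 of the 102 contigs, against 113 of all 733 (15.4%). By direction this was 30 of 36 higher and 43 of 66 lower contigs. The 73 are part of the 113, and picking contigs by their difference favours such gaps, so these shares carry no test.

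For the other 631 contigs the data set limits rather than showing equal levels. The 95% interval of their difference had a median half-width of 1.62 log2 units. It lay within 2 units of 0 for 224 of them and within 1 unit for 6, and for 407 it reached 2 units or beyond. An unadjusted p under 0.05 was found for 118, and the largest difference without a call was 4.07 in size.

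contig_2266 showed the widest gap. At 300 ng/g its log2 ratio was -8.47, -8.02, -7.87, -7.47 and -8.34 in fish 31 to 35. At 50 ng/g it was 0.72, 0.90, 0.42, 1.50 and -0.35 in fish 25 to 29. All fins of the higher dose lay far below the reference and all of the lower dose near it, with nothing between. The means were -8.03 ± 0.40 and 0.64 ± 0.68 (SD, n = 5 each), so that 300 minus 50 ng/g was -8.67 ± 1.13 (SE, limma adjusted p = 4.38e-06). The control fins stood with the higher dose, at -7.85 ± 0.38, as did the Certes fins at -8.04 ± 0.30 and the Garonne fins at -8.00 ± 0.59. Control livers, at 0.59 ± 0.65, and Cd livers, at -0.07 ± 0.53, lay at the level of the 50 ng/g fins. Of the 4 Cd fins with a value, fish 47, 49 and 50 lay at -7.81, -8.07 and -7.39 and fish 45 at 2.51 (mean -5.19 ± 5.14). No Gironde fin held a value. The spread of these Cd fins enters the SE above, which is pooled over all fin groups.

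contig_16133 was lower at 300 ng/g with more spread. Fish 31 to 35 lay at -9.02, -6.83, -4.72, -7.13 and -5.70, and fish 25 to 29 at -2.62, -0.39, -0.08, 0.13 and 0.53. Again the doses did not overlap, though fish 25 stood apart from the other fish of its dose towards the higher one. The means were -6.68 ± 1.62 and -0.48 ± 1.24 (SD, n = 5 each), so that 300 minus 50 ng/g was -6.20 ± 1.01 (SE, limma adjusted p = 0.000103). Control fins averaged -6.56 ± 1.11, Garonne fins -6.17 ± 1.60, Certes fins -5.68 ± 0.30 and Cd fins -3.74 ± 3.03, and control livers 0.39 ± 0.98. Of the Cd fins, fish 47 to 50 lay at -4.51, -5.21, -6.06 and -4.45 and fish 45 at 1.55. Their spread too enters the SE above. This contig too was without a value in Gironde fins.

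On the other side, contig_19308 was higher at 300 ng/g. It lay at 3.17, 2.94, 4.49, 3.15 and 2.68 in fish 31 to 35 and at 0.20, -0.24, -0.60, 1.01 and 0.39 in fish 25 to 29. The lowest fin of the higher dose was above the highest of the lower dose. The means were 3.29 ± 0.70 and 0.15 ± 0.61 (SD, n = 5 each), so that 300 minus 50 ng/g was 3.13 ± 0.64 (SE, limma adjusted p = 0.00181). Control fins averaged 2.20 ± 0.82 and ran from 1.34 to 3.49, all above the 50 ng/g fins and overlapping the 300 ng/g fins. Garonne fins were highest, at 4.72 ± 0.57 (n = 4), and control livers lay at 0.84 ± 1.18.

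contig_9484 was higher by the largest amount among called contigs with all 10 values, but 1 fish carried much of it. At 300 ng/g fish 33 lay at 10.3 and fish 31, 32, 34 and 35 at 3.46, 2.98, 3.44 and 3.01. At 50 ng/g fish 28 lay at 3.56, inside the range of the higher dose, and fish 25, 26, 27 and 29 at 0.66, 1.00, 0.54 and 0.07. The means were 4.63 ± 3.15 and 1.17 ± 1.38 (SD, n = 5 each), so that 300 minus 50 ng/g was 3.46 ± 1.02 (SE, limma adjusted p = 0.0204). Without fish 33 it was 2.06 and no longer passed (limma adjusted p = 0.104). It did not pass either in the fit of the 10 PCB arrays (limma adjusted p = 0.144) or after scaling to one spread (limma adjusted p = 0.235). Control fins averaged 2.54 ± 0.72, Garonne fins 2.93 ± 0.74 and Cd fins 2.18 ± 1.27. Certes fins, at 1.18 ± 0.89, lay at the level of the 50 ng/g fins. The Gironde fins with a value lay at 7.43 and 2.68 (n = 2).

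**Figure D3:**
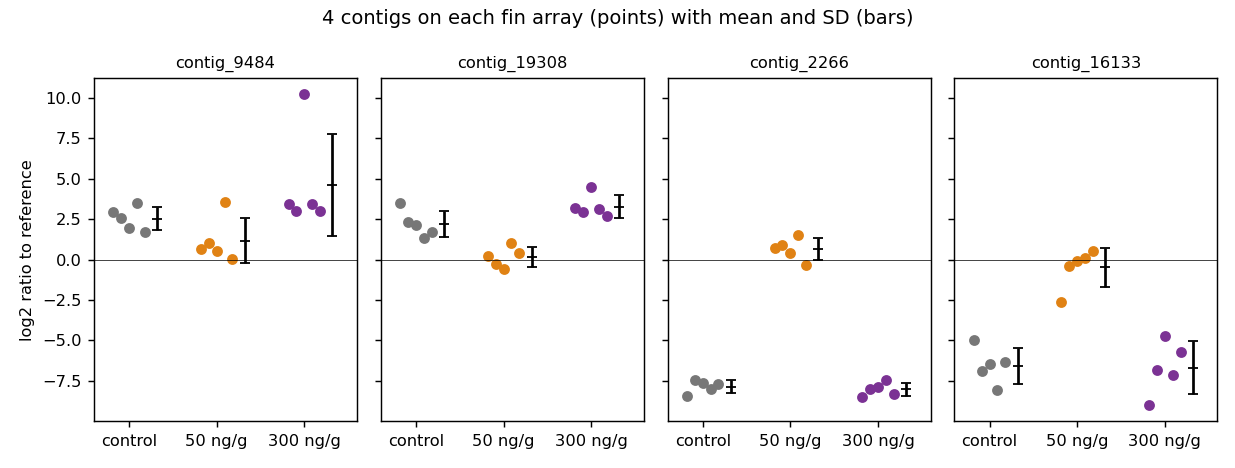
Log2 ratio to the reference (vertical) of 4 contigs on each control, 50 ng/g and 300 ng/g fin array (5 points per group), with the mean and SD as bars. In contig_2266, contig_16133 and contig_19308 the doses do not overlap, and in contig_9484 fish 28 of the lower dose (3.56) lies within the range of the higher dose.

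Where the doses differed, the mean of the lower dose was mostly the one near the reference. This is a statement about means, and single arrays were not counted over the 102 contigs. The 50 ng/g arrays often differed in sign within a contig, and values of unlike sign draw a mean towards 0. Over all contigs the median absolute log2 ratio of single arrays overlapped between the doses, as given above, which does not bear on the 102 alone. In contig_2266, contig_16133 and contig_19308 each 50 ng/g array lay nearer to 0 than each 300 ng/g array. In contig_9484 fish 28 did not. Over the 36 higher contigs the median of the group means was 2.49 at 300 ng/g and -0.65 at 50 ng/g. Over the 66 lower contigs it was -3.03 and 0.47. The 50 ng/g mean lay within 1 unit of the reference in 82 of the 102 contigs, and the 300 ng/g mean in 7. Beyond 2 units the counts were 7 at 50 ng/g and 79 at 300 ng/g. The 50 ng/g mean was nearer to 0 in 92 of the 102 contigs (90.2%), against 507 of all 733 (69.2%). Both means lay on opposite sides of the reference in 79 of the 102 (77.5%), against 385 of 733 (52.5%). These counts describe contigs picked by their difference, so they carry no test. Without fish 26 the count on opposite sides was 68, and leaving out any other PCB array gave 76 to 80.

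**Figure D4:**
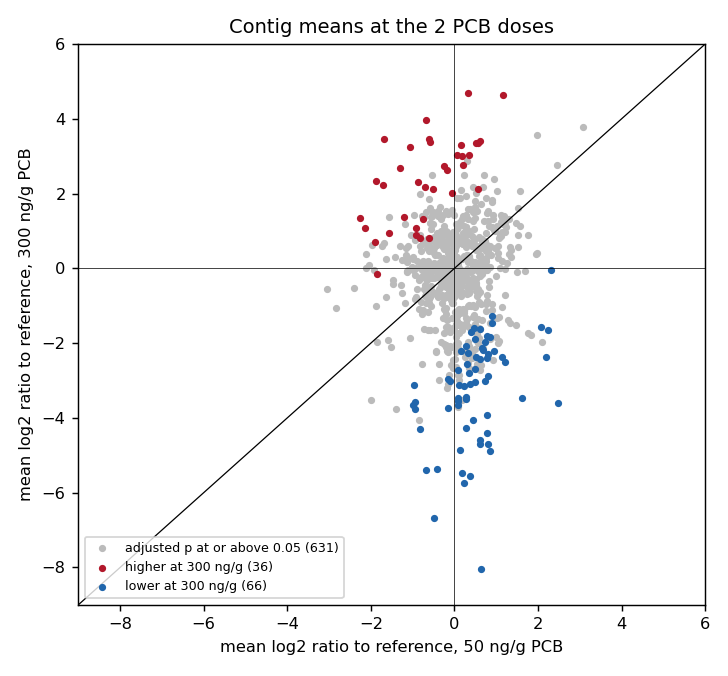
Mean log2 ratio to the reference of the 733 contigs at 50 ng/g (horizontal) and at 300 ng/g PCB (vertical), with equal levels on the diagonal line. The 36 higher (red) and 66 lower (blue) contigs stretch along the vertical axis, from -8.03 to 4.69 at 300 ng/g, and stay between -2.26 and 2.48 at 50 ng/g.

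The 300 ng/g arrays had the same sign in most of these contigs. In 34 of the 36 higher contigs every 300 ng/g value was above 0, and in 56 of the 66 lower contigs every one was below 0. At 50 ng/g all values were on 1 side in 9 of the 36 (2 above, 7 below) and in 13 of the 66 (12 above, 1 below). Over all 733 contigs every 300 ng/g value was above 0 in 195 and below 0 in 158, and every 50 ng/g value in 58 and 37. These counts include contigs with missing values, where a common sign is easier to reach. The 300 ng/g arrays held fewer values, 740.2 on average against 826.8 at 50 ng/g. Picking contigs by their difference also favours a common sign within a dose, so these counts carry no test.

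Seen array by array, the median over the 36 higher contigs was 2.27, 2.17, 4.06, 2.22 and 1.96 in fish 31 to 35. In fish 25 to 29 it was -0.73, -1.09, 0.18, 0.40 and 0.03. Over the 66 lower contigs it was -2.91, -4.08, -4.02, -2.39 and -2.21 at 300 ng/g, and 0.24, 0.81, 0.03, 0.13 and 0.10 at 50 ng/g. The arrays of the doses do not overlap here, which the choice of these contigs by their difference fixes, and fish 26 lay farthest from the higher dose in both sets. The control fins ran from 1.37 to 1.65 over the higher contigs and from -2.94 to -1.71 over the lower ones. On fish 33 only 16 of the 36 higher contigs had a value, against 62 of the 66 lower ones. Of all 992 contigs 470 had one, but these include the 259 contigs left out, 230 of them without a value on fish 33. The share among the tested contigs was therefore larger.

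**Figure D5:**
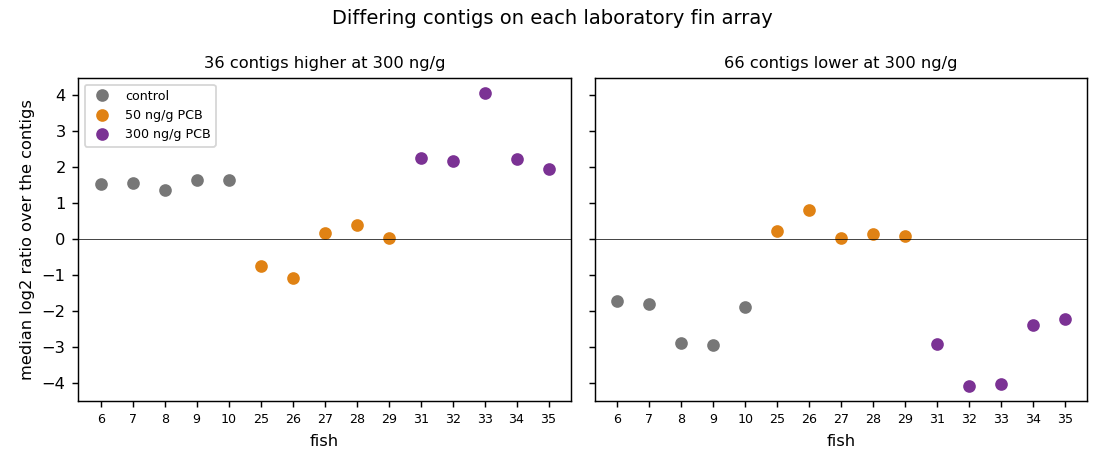
Median log2 ratio (vertical) over the 36 contigs higher (left) and the 66 lower (right) at 300 ng/g, 1 point per fin array of control, 50 ng/g and 300 ng/g fish (horizontal). The 50 ng/g arrays lie between -1.09 and 0.81, and the control arrays lie on the side of the 300 ng/g arrays in both panels.

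Across the laboratory fins the levels did not follow the order of the doses in the contigs that differed. The 50 ng/g mean lay between the control and the 300 ng/g mean in 0 of the 102 contigs, against 106 of all 733 (14.5%). The control mean was in the middle in 82 of the 102 (80.4%), and the 300 ng/g mean in 20 (19.6%). Over all 733 contigs these were 376 (51.3%) and 251 (34.2%). The choice of contigs by the gap between the doses favours a control mean in the middle, so these shares carry no test. The control mean was nearer to the 300 ng/g mean than to the 50 ng/g mean in 29 of 36 higher contigs and 51 of 66 lower ones, against 498 of 733 (67.9%). Leaving out 1 PCB array at a time kept the sum of both, 80, between 76 and 88.

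Over the contigs that differed, the medians of the group means of wild and cadmium fins mostly lay between the doses, though single arrays differed. The choice of contigs by the gap between the doses favours this too, so the values below carry no test. Over the higher contigs the median of their group means was 2.15 in Garonne, 1.26 in Cd, 1.19 in Certes and 0.89 in Gironde fins. Array by array, Gironde fish A315 lay at 2.36. The other Gironde arrays lay between -0.37 and 0.25, inside the range of the 50 ng/g arrays. Each Gironde array held 14 to 27 of these contigs. Cd fish 45 lay at 0.12 and the other Cd fins between 1.00 and 1.78. Over the lower contigs it was -3.44 in Garonne fins, below the 300 ng/g level, and -1.27 in Certes, -1.17 in Cd and 0.07 in Gironde fins. Garonne fins were nearer to 300 ng/g in 28 of the 30 higher contigs and 46 of the 52 lower contigs that they held (438 of 617 tested, 71.0%). Certes fins were nearer to 300 ng/g in 26 of 36 and 34 of 61 (386 of 709, 54.4%), and Cd fins in 26 of 36 and 33 of 66 (370 of 733, 50.5%). Gironde fins were nearer to 300 ng/g in 18 of 35 and 15 of 64 (272 of 726, 37.5%). Control livers, the same tissue as the labels give for the reference, were nearer to 300 ng/g in 11 of 36 and 17 of 66 (311 of 733, 42.4%). Their median over the 66 contigs was -0.02, against 0.47 in 50 ng/g fins and -3.03 in 300 ng/g fins.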

How the data were processed

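Caudal fin RNA of 10 PCB-fed eels was read on 2-colour arrays. The values are the authors' deposited log2 ratios of 992 contigs. Every array has a median of 0 in the deposited table, so the authors centred each one, and values reach 10.3 in size on the PCB arrays, as log2 ratios can. How background was corrected and spots filtered is not given in the sources used here. Missing values, 21.0% on the PCB arrays, were left missing. Another table holds 180 columns of scanner values numbered by slide without sample names, and was not used here.

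limma 3.58.1 under R 4.3.3 (lmFit, then eBayes) fitted the group means of all 35 fin arrays, for contigs with at least 3 values at each dose, with Benjamini-Hochberg adjustment over the 733 contigs and a threshold of 0.05. The fit was also run on simulated normal values with a common spread per contig for all groups. The unequal spread of the real arrays was not simulated, so that run does not bear on the calls. Each measure per array was tested by exact permutation of 5 against 5 arrays (scipy 1.17.1), adjusted over 3 measures. Intervals are at 95%. The number of arrays limits precision. Contigs named are the 2 higher and 2 lower with the largest differences among the 44 called with all 10 values. Alternatives were other minimums, scalings, weights, signs and arrays left out. The comparison, rule and tests were chosen with earlier results of these data known. The gene lists and cell type markers listed for the case that contigs had names gave no result.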

Additional observations from a re-analysis of the deposited data

Results flagged for a closer look

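In 18 groups of 5 arrays examined (3 measures per array, 4 contigs and 2 sets of contigs, at each dose), 6 values stood apart by more than Dixon's critical gap of 0.71 of the group's range. Chance gives about 1 such group in 20 for values that were not picked. The 4 contigs and 2 sets were picked by their difference between the doses on these same arrays. That rate does not hold for them, and the measures share arrays. Fish 33 at 300 ng/g accounts for 4 of the 6. Its median absolute log2 ratio was 2.12, with the other 4 arrays between 0.664 and 0.961. Its contig_9484 ratio was 10.3, with the others between 2.98 and 3.46, and its contig_19308 ratio was 4.49, with the others between 2.68 and 3.17. Its median over the contigs higher at 300 ng/g was 4.06, with the others between 1.96 and 2.27. That median rests on 16 of the 36 contigs, and those of the other arrays on 34 to 36. At 50 ng/g, contig_9484 lay at 3.56 in fish 28, with the others between 0.07 and 1.00. The median over the contigs lower at 300 ng/g was 0.81 in fish 26, with the other 50 ng/g arrays between 0.03 and 0.24.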

How the results depend on the processing

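The count of 102 contigs between the doses was within 1.5 times in 17 of 23 alternatives and moved further in the others. Of 733 tested, it was 52 in the fit of the 10 PCB arrays (48 shared with the 102) and 50 scaled to one spread (46 shared). Quantile normalization gave 61 of 733 (56 shared). With 5 values per dose only 278 contigs were tested and 47 passed (44 shared). In the main fit 44 of those 278 passed. Leaving out 1 PCB array at a time gave 63 of 691 tested (without fish 33) to 118 of 638 tested (without fish 35). Without both fish 26 and fish 33, an alternative chosen after seeing the data, it was 51 of 654 tested. Recentring gave 83, array weights 136 and weights per group 68, and a fit without the Gironde fins and Cd fish 45, also chosen after seeing the data, gave 133 with 62 higher and 71 lower. The median of all differences, -0.14, was -0.34 with the sign of fish 26 turned, -0.03 with quantile normalization, and -0.26 to 0.02 with 1 PCB array left out. The difference in array SD, 0.61 with all values, was 0.77 over contigs with all 10 values, where it passed (exact permutation test, adjusted p = 0.0238 over 3 measures), and ran from 0.37 (without fish 33) to 0.75 with 1 array left out, where it did not pass. The differences in values per array and in the median absolute ratio passed under none of their alternatives. contig_2266, contig_16133 and contig_19308 kept direction and call in all 23 alternatives, and contig_9484 kept its direction in all and its call in 19. It did not pass at 2.02 without fish 26 and fish 33, nor in the 3 settings given above. The cause was not tested. No paired analysis was possible because the doses share no fish numbers.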
